A study of Mus musculus with 10 samples.

Results

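Transcripts of the choroid plexus and of the ependyma, the tissues that line and fill the brain ventricles, were followed in RNA-seq libraries labelled as hippocampal CA3. The choroid plexus is a folded epithelium that secretes cerebrospinal fluid and carrier proteins into the ventricles, and the ependyma is the single layer of cells whose motile cilia move that fluid along the ventricle walls. The lateral ventricle and its choroid plexus lie beside the hippocampus, so both tissues can enter a dissected block. The genes were chosen by symbol from what is known of the 2 tissues, with earlier results of these data known. They were 21 choroid plexus genes and 13 ependymal genes, 34 of the 18453 genes in the files. All 34 were found, and 33 had enough counts to be tested among 14393 genes. Only Mia, at 0 to 1 count per library, was too low.

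The 10 libraries came from C57BL/6J mice whose sex label is male, although the injection protocol speaks of either sex, and no age is given. All mice received adeno-associated virus into CA3 on both sides. In 5 libraries the virus carried a scrambled hairpin (scramble), and in the other 5 a short hairpin RNA against Mef2c, a transcription factor of neurons (knockdown). The labels name no promoter for the hairpin, and nothing in them ties each library to its own animal, so a p-value here reflects only how far these libraries scatter. Library totals lay between 14701928 and 17798090 counts. Mef2c itself did not pass the test (log2 fold change -0.34, SE 0.30, edgeR adjusted p = 0.489). It lay at 166 to 312 CPM (counts of a gene per 1000000 counts of its library, scaled by TMM) in the scramble libraries, at 110 to 163 CPM in knockdown libraries 1 to 4, and at 286 CPM in the library labelled knockdown 5, which goes against its label. Defining CA3 markers were present in every library, such as the kainate receptor gene Grik4 (54.2 to 89.4 CPM) and Cpne4 (78.9 to 141 CPM).

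The level of choroid plexus transcripts differed between libraries of one group by far more than between the groups. Ttr, which encodes transthyretin, the carrier of thyroid hormone in cerebrospinal fluid and the most abundant choroid plexus transcript, stood at 1540, 63.01, 39.2, 1767 and 873 CPM in scramble libraries 1 to 5, at 2443, 24.6, 32.5 and 26.9 in knockdown libraries 1 to 4, and at 614 in the library labelled knockdown 5. The values fell into separate clusters within both groups: scramble libraries 1, 4 and 5, knockdown library 1 and the library labelled knockdown 5 were high, and scramble libraries 2 and 3 and knockdown libraries 2, 3 and 4 were low. The highest library held 99.2 times the level of the lowest. Bulk RNA cannot tell fewer choroid plexus cells from less RNA per cell.

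Most other choroid plexus genes had the same high and low libraries. The 5 highest libraries of Ttr were also the 5 highest of 19 of the 21 genes, Ttr included, a pattern found in 143 of all 14393 tested genes (0.994%). It was found in 0 of 12 tested ependymal genes. Knockdown library 1 was the highest library of all 21 choroid plexus genes. These counts describe the libraries and test nothing, because the libraries were read from Ttr itself. The sum of all 21 genes stood at 2999, 364, 323, 3503 and 1874 summed CPM in scramble libraries 1 to 5, at 4944, 239.5, 254 and 309 in knockdown libraries 1 to 4, and at 1093 in the library labelled knockdown 5. That is between 0.0240% and 0.494% of all normalized counts. Without Ttr the range of the sum was 215 to 2501 CPM, an 11.6-fold difference against 20.6-fold with it.

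**Figure D1:**
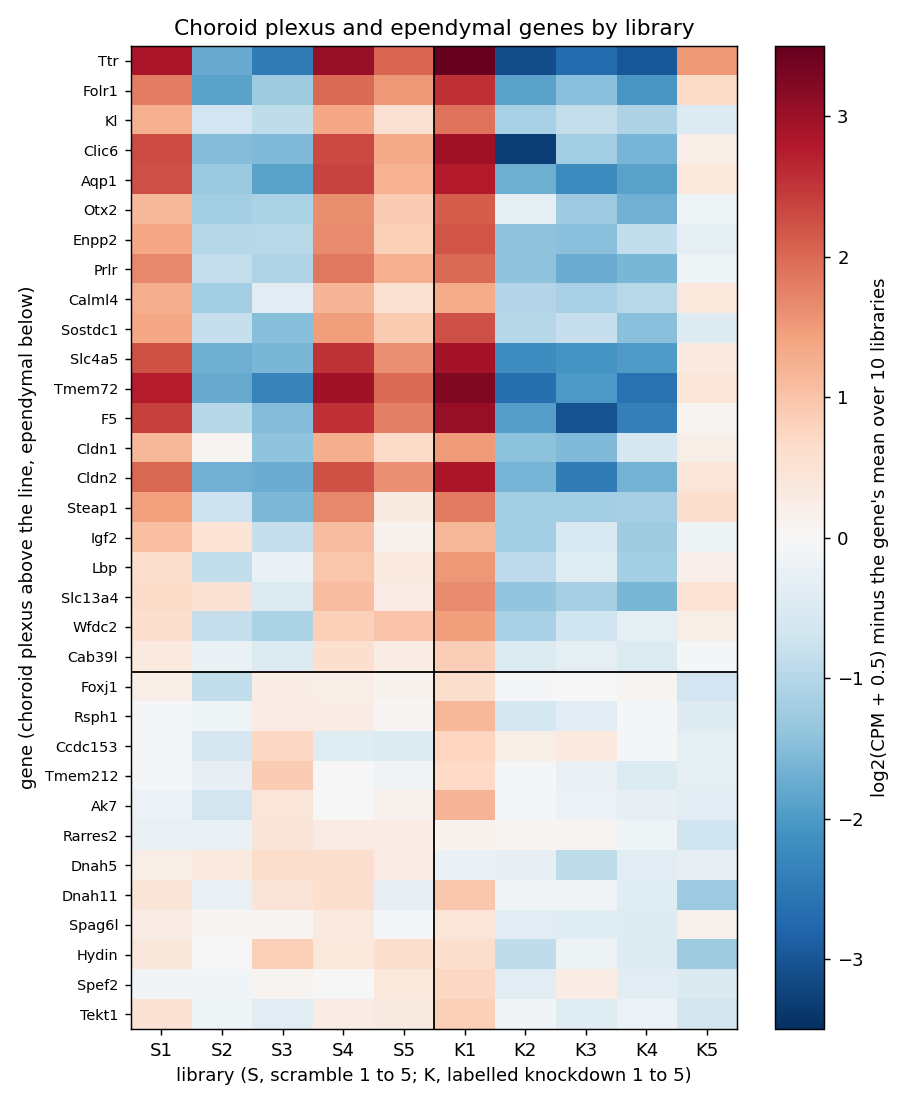
Heat map of 33 choroid plexus and ependymal genes (rows) in 10 libraries (columns S1 to S5 for scramble, K1 to K5 for labelled knockdown), coloured by log2(CPM + 0.5) minus the mean of the gene. In the choroid plexus rows, S1, S4, S5 and K1 are red in all 21 genes and S3 and K2 to K4 blue, while the ependymal rows stay pale.

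Carriers and receptors of the choroid plexus epithelium differed in how much signal the low libraries kept. Folr1, the folate receptor that moves folate into cerebrospinal fluid, stood at 15.8, 0.767, 1.46, 17.9 and 12.8 CPM in scramble libraries 1 to 5, at 27.02, 0.776, 1.19 and 0.64 in knockdown libraries 1 to 4, and at 6.94 in the library labelled knockdown 5. Kl, which encodes klotho, a co-receptor of the growth factor FGF23, stood at 104, 27.03, 23.3, 111 and 62.9 CPM in scramble libraries 1 to 5, at 163, 19.2, 24.1 and 20.3 in knockdown libraries 1 to 4, and at 30.8 in the library labelled knockdown 5. Folr1 was close to absent in the low libraries, whereas Kl kept at least 19.2 CPM everywhere, so its 8.49-fold range was narrower than the 42.2-fold range of Folr1. Prlr, the prolactin receptor, spanned 2.01 to 32.5 CPM, and Lbp, the lipopolysaccharide-binding protein, 4.13 to 30.1 CPM. Wfdc2, a small secreted protein, lay at 0.0554 to 2.89 CPM. On a scale of CPM per kilobase of the longest transcript, which allows levels of different genes to be compared, Ttr averaged 626, Enpp2 193, Kl 10.04, Folr1 6.498 and Slc4a5 1.99 over the 10 libraries.

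Channels and transporters of fluid secretion followed. Aqp1, the water channel of the apical membrane, stood at 17.5, 1.02, 0.53, 19.1 and 8.31 CPM in scramble libraries 1 to 5, at 25.5, 0.665, 0.313 and 0.524 in knockdown libraries 1 to 4, and at 4.35 in the library labelled knockdown 5. Slc4a5, a sodium bicarbonate cotransporter, stood at 20.9, 0.895, 0.994, 25.6 and 13.3 CPM in scramble libraries 1 to 5, at 33.4, 0.499, 0.564 and 0.64 in knockdown libraries 1 to 4, and at 5.25 in the library labelled knockdown 5. Both were above 4 CPM in each of the 5 high libraries and at or below about 1 CPM in the others. Clic6, of the chloride intracellular channel family, differed 135-fold between its highest and lowest library (0.665 to 89.5 CPM). Slc13a4, a sulfate transporter, had a narrower range of 3.67 to 39.2 CPM and is described with the meningeal genes below.

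Junction, membrane and secreted protein genes included the widest ranges of the 21. Cldn2, the pore-forming claudin of this epithelium, stood at 13.2, 0.575, 0.53, 15.7 and 9.89 CPM in scramble libraries 1 to 5, at 24.2, 0.61, 0.125 and 0.582 in knockdown libraries 1 to 4, and at 4.10 in the library labelled knockdown 5. The highest value of Cldn2 was 193 times the lowest, which rests on 2 counts in knockdown library 3. Cldn1, a barrier-forming claudin, spanned 0.689 to 9.24 CPM. Coagulation factor F5 differed 158-fold (0.376 to 59.2 CPM) and the transmembrane protein gene Tmem72 189.5-fold (0.222 to 42.04 CPM). Sostdc1, a secreted antagonist of BMP and Wnt signals, spanned 1.92 to 31.96 CPM, Steap1 0.133 to 6.10 CPM and Calml4, a calmodulin-like protein, 0.831 to 6.93 CPM.

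Some genes of the list kept a level in the low libraries. Enpp2, which encodes autotaxin, the enzyme that makes lysophosphatidic acid and that oligodendrocytes also express, stood at 1013, 197, 201, 1233 and 705 CPM in scramble libraries 1 to 5, at 1796, 147, 141 and 214 in knockdown libraries 1 to 4, and at 316 in the library labelled knockdown 5. Its low libraries kept 141 to 214 CPM, and the summed level of 12 oligodendrocyte markers was 5000 to 9988 CPM in all 10 libraries. The part of oligodendrocyte RNA in the Enpp2 values was not tested. Cab39l, a scaffold protein of the LKB1 kinase, had the narrowest range of the 21 genes, 23.3 to 59.4 CPM, a 2.55-fold difference. Over the 21 genes the fold between the highest and lowest library ran from 2.55 to 193, with a median of 21.7.

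**Figure D2:**
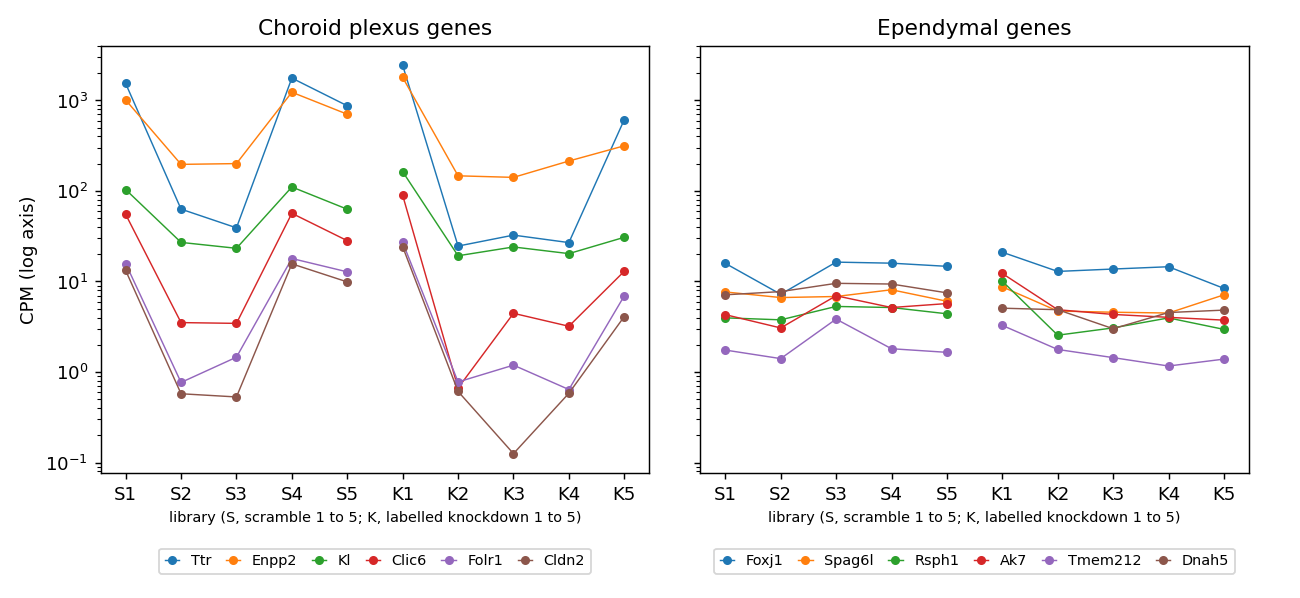
CPM on a log axis in each library (S1 to S5 scramble, K1 to K5 labelled knockdown; lines join libraries of a group and are a guide only) for 6 choroid plexus genes, left, and 6 ependymal genes, right. Ttr runs from 24.6 to 2443 CPM and Folr1 and Cldn2 run with it, while Foxj1 runs from 7.22 to 21.1 CPM.

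The proportion of choroid plexus genes to Ttr was close in 4 of the 5 high libraries, and for several genes lower in the library labelled knockdown 5. Per 1000 units of Ttr CPM, Folr1 stood at 10.3, 12.2, 37.2, 10.2 and 14.6 units in scramble libraries 1 to 5, at 11.1, 31.5, 36.6 and 23.8 in knockdown libraries 1 to 4, and at 11.3 in the library labelled knockdown 5. Among the 5 libraries in which Ttr was high, this ratio ran from 10.2 to 14.6. Where Ttr was low, it ran from 12.2 to 37.2, and there Folr1 rests on few counts. Cldn2 per 1000 units of Ttr was 8.60, 8.87, 11.3 and 9.90 in scramble libraries 1, 4 and 5 and knockdown library 1, with 6.68 for the library labelled knockdown 5. For F5 the ratio was 23.8 to 27.1 in those 4 libraries and 11.7 in the library labelled knockdown 5. Clic6 gave 32.1 to 36.7 against 21.1, and Slc4a5 13.6 to 15.2 against 8.55. In the low libraries the ratio ran from 14.2 to 25.4 for Slc4a5 and from 27.0 to 137 for Clic6. There it ran from 11.6 to 56.3 for F5 and from 3.85 to 24.8 for Cldn2. The highest of these values lay above those of the high libraries for each gene, also on few counts. The ratio of Enpp2 was higher in all low libraries than in any high one. It was 514 to 807 in the high libraries and 3123 to 7965 in the low ones.

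Igf2 and Slc13a4 are also known from the leptomeninges, the membranes over the brain. Igf2, a growth factor made by both choroid plexus and leptomeninges, stood at 4.23, 2.68, 0.795, 4.29 and 1.99 CPM in scramble libraries 1 to 5, at 4.62, 0.499, 1.07 and 0.466 in knockdown libraries 1 to 4, and at 1.51 in the library labelled knockdown 5. Slc13a4 stood at 18.95, 17.2, 8.48, 26.1 and 14.8 CPM in scramble libraries 1 to 5, at 39.2, 4.33, 5.08 and 3.67 in knockdown libraries 1 to 4, and at 16.96 in the library labelled knockdown 5. These are the only 2 of the 21 genes whose 5 highest libraries were not those of Ttr, and in each of them scramble library 2 was among the 5 highest. Scramble library 2 also had the highest sum of 18 leptomeningeal markers, 259.9 CPM against 125 to 229 CPM in the other 9 libraries, a list that includes Igf2. The part of leptomeningeal RNA in these values was not tested.

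The spread of the choroid plexus genes was among the widest in the data. The pooled SD of log2 CPM within groups was 2.95 for Tmem72 and 2.86 for Ttr, which rank 1 and 2 of all 14393 tested genes, and 8 of the 21 genes were among the 20 widest. Set against genes of similar level (10 equal bins of mean log2 CPM), 16 of the 21 lay at or above the 99th percentile. The median SD was 1.55 for the choroid plexus genes and 0.53 for the 12 tested ependymal genes, against 0.165 for all tested genes. No ependymal gene reached the 99th percentile of its level, and Foxj1 came nearest at 96.4.

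**Figure D3:**
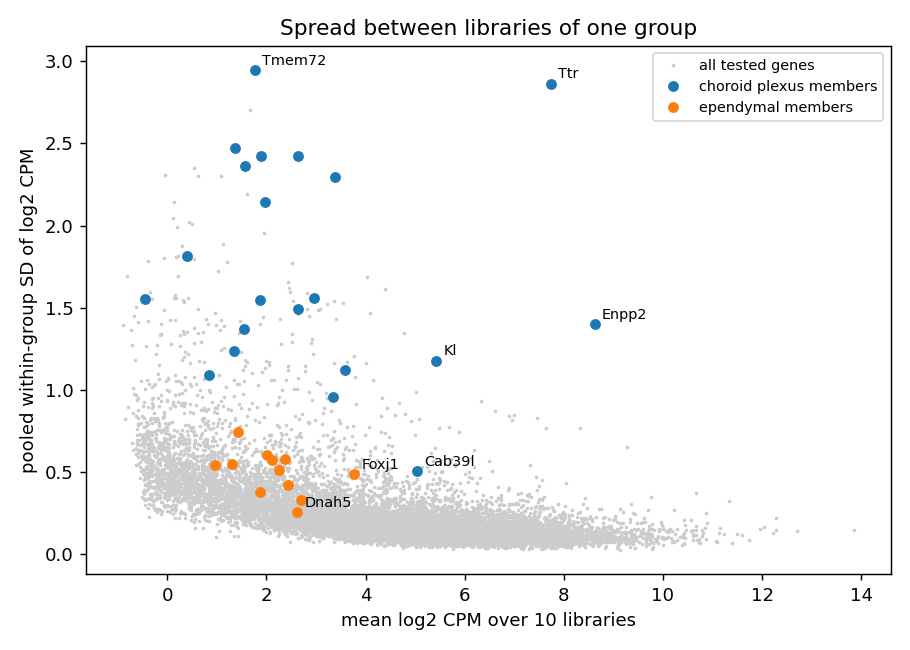
Pooled within-group SD of log2 CPM (y axis) against mean log2 CPM over 10 libraries (x axis) for 14393 tested genes (grey), 21 choroid plexus genes (blue) and 12 ependymal genes (orange). Ttr and Enpp2 stand alone at high level with SDs of 2.86 and 1.40, and the ependymal genes lie between 0.25 and 0.74.

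Ependymal genes varied far less, and none had exactly the 5 highest libraries of Ttr, although some of these libraries were shared. Foxj1, the transcription factor that drives the motile cilia program, stood at 15.9, 7.22, 16.4, 15.9 and 14.7 CPM in scramble libraries 1 to 5, at 21.1, 12.9, 13.7 and 14.6 in knockdown libraries 1 to 4, and at 8.39 in the library labelled knockdown 5. Its lowest values came from scramble library 2 and the library labelled knockdown 5, and its value in scramble library 3, a low library of Ttr, was the second highest. Rsph1, of the radial spoke head, spanned 2.55 to 10.1 CPM, Ak7, an adenylate kinase of cilia, 3.07 to 12.3 CPM, and Ccdc153 2.94 to 8.22 CPM. Tmem212 stood at 1.75, 1.41, 3.84, 1.81 and 1.65 CPM in scramble libraries 1 to 5, at 3.27, 1.77, 1.44 and 1.16 in knockdown libraries 1 to 4, and at 1.39 in the library labelled knockdown 5. Knockdown library 1 was highest in 8 of the 12 genes and scramble library 3 in the other 4.

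Cilium structure genes among the members covered the axoneme. Spag6l and Hydin, of the central pair, spanned 4.48 to 8.73 CPM and 1.39 to 7.49 CPM. Spef2, of the same apparatus, spanned 3.62 to 9.05 CPM, the tektin gene Tekt1 1.33 to 4.62 CPM and the outer arm dynein heavy chain gene Dnah11 0.785 to 5.46 CPM. Rarres2, which encodes the secreted protein chemerin, spanned 1.99 to 5.04 CPM. The fold between highest and lowest library ran from 1.95 to 6.95 over the 12 genes, with a median of 3.24. The sum of the 13 ependymal genes stood at 65.7, 48.9, 80.7, 71.1 and 66.03 summed CPM in scramble libraries 1 to 5, at 98.01, 51.5, 54.03 and 50.9 in knockdown libraries 1 to 4, and at 41.2 in the library labelled knockdown 5, a 2.38-fold range. Its 5 highest libraries were those of Ttr, except that scramble library 3 stood in place of the library labelled knockdown 5, which was lowest.

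A relation across libraries was computed for Foxj1 with Tmem212. Over the 10 libraries Pearson's r of log2 CPM was 0.585 (permutation p = 0.0515) and Spearman's rho 0.758 (permutation p = 0.0144), from 100000 resamples each. Without scramble library 2 and the library labelled knockdown 5, the farthest from the median of Foxj1, r was 0.686 (permutation p = 0.0642). Of 3 relations planned, only this one is given, and its p-values are not adjusted for the number of relations. The relations of Ttr with Folr1 and with Foxj1 cannot be tested, because Ttr falls into separate clusters of 5 libraries.

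Promoter sequence was read from a collection of RefSeq promoters (GRCm38.p6) with 250 bases before and 50 after each annotated start. The collection used held an entry for 25 of the 34 genes. The 9 without an entry were Ttr, Folr1, Clic6, Enpp2, Sostdc1, Lbp, Foxj1, Rsph1 and Rarres2, so the shares below leave them out. The motifs were searched on both strands, and no motif contains another: TAATCC, bound by OTX factors, GTAAACA, bound by forkhead factors such as FOXJ1, and 2 forms of the X-box of the RFX factors that regulate cilia genes. The looser X-box is GTTGC, any 3 bases, G, any 2 bases and AC, and the stricter one is GTT, any base, CCATGG, any base and AAC. TAATCC was in 2 of 15 choroid plexus genes (Otx2 and Igf2) and in 8.14% of all 27025 genes of the collection. It was also in 1 of 10 ependymal genes (Dnah11). GTAAACA was in 1 of 10 ependymal genes (Ak7), 1 of 15 choroid plexus genes (Prlr) and 4.05% of all. The looser X-box was in 0 of 10 ependymal members and 1 of 15 choroid plexus members (Steap1), but in 15 of 53 other cilia genes, such as Dnah9, Dnaic1 and Enkur, against 1.67% of all genes. The stricter form was in none of these sets and 0.152% of all. A gene counts once if any of its annotated starts has a match. The 250 bases before 1 start each are shown for the choroid plexus transcription factor gene with a match and the gene of widest spread. They are also shown for the ependymal gene with a match to GTAAACA and the only member that passed the test of knockdown against scramble. Capitals mark the match, TAATCC read on the other strand in Otx2 and GTAAACA read on the other strand in Ak7, and Tmem72 and Dnah5 held no match to these in their windows.
Otx2 (chr14:48665110-48665359, minus strand): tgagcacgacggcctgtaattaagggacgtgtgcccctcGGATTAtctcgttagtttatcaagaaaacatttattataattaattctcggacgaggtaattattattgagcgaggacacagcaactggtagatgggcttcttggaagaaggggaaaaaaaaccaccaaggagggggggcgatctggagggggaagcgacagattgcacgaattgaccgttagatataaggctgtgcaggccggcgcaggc
Tmem72 (chr6:116716759-116717008, minus strand): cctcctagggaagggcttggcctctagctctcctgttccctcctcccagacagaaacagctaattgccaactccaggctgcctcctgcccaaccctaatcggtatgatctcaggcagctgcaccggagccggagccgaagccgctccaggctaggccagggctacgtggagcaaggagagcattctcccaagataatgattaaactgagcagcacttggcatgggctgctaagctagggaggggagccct
Ak7 (chr12:105705732-105705981, plus strand): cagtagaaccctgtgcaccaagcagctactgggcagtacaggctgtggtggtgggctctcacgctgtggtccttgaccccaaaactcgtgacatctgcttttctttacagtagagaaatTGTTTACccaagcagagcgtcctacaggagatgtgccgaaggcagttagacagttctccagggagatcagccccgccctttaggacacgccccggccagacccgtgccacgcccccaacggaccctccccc
Dnah5 (chr15:28203516-28203765, plus strand): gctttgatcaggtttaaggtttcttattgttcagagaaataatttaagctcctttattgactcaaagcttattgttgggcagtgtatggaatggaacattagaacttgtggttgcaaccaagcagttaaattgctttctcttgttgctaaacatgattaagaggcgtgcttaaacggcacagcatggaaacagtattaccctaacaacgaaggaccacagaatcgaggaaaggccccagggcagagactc

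Otx2 encodes the homeodomain factor needed to form the choroid plexus. Its transcript stood at 8.74, 1.34, 1.46, 12.4 and 7.28 CPM in scramble libraries 1 to 5, at 17.7, 2.83, 1.25 and 0.815 in knockdown libraries 1 to 4, and at 3.26 in the library labelled knockdown 5. Otx2 shared its 5 highest libraries with Ttr, with a range of 21.7-fold.

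The comparison of knockdown with scramble libraries asks whether the hairpin against Mef2c went with a change in these genes. With edgeR's quasi-likelihood test, 0 of 21 choroid plexus genes passed an adjusted p of 0.05, where 12.3% of all tested genes passed, and 0 had an unadjusted p under 0.05. Under the DESeq2 Wald test 0 passed as well. Ttr, on chromosome 18 (ENSMUSG00000061808), averaged 857 ± 805 CPM (SD, n = 5) with the scramble hairpin and 628 ± 1046 CPM (SD, n = 5) under the label of knockdown, with a fitted log2 change of -0.45 (SE 1.57, 95% interval -4.07 to 3.17, edgeR adjusted p = 0.881). An exact two-sided permutation test of Ttr on log2(CPM + 1), over 252 assignments, gave a difference of means of -1.48 with p = 0.333 (n = 5 in each group), where the smallest possible p is 0.00794. The groups overlapped in all 21 genes. The intervals are wide: for Folr1 the fitted log2 change was -0.42 (SE 1.21, 95% interval -3.20 to 2.36, edgeR adjusted p = 0.852), and for Enpp2 it was -0.36 (SE 0.91, 95% interval -2.45 to 1.73, edgeR adjusted p = 0.833).

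The log2 fold changes of all 21 choroid plexus genes were below 0, with a median of -0.44 against 0.02 for all tested genes. The genes share the same libraries, so this is not 21 separate observations. Without knockdown libraries 2, 3 and 4 all 21 were above 0, and with 1 surrogate variable as a covariate 20 were. Leaving out knockdown library 1 alone let Igf2 pass (log2 fold change -1.66, SE 0.50, edgeR adjusted p = 0.0323), and 6 of the 21 (28.6%) then had an unadjusted p under 0.05. Of all 14515 genes tested in that fit, 22.8% passed and 36.3% had an unadjusted p under 0.05, so both counts lay below the share of all genes.

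**Figure D4:**
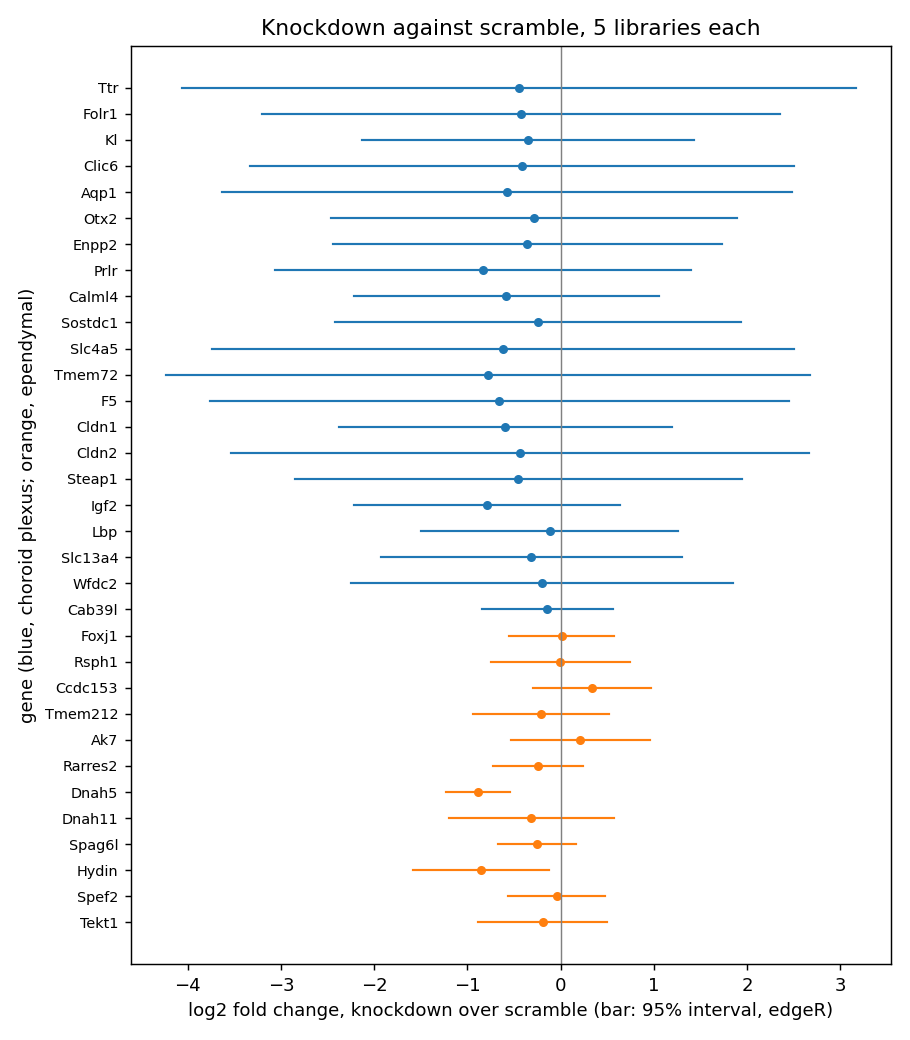
Log2 fold change of knockdown over scramble libraries (points) with 95% intervals from edgeR (bars) for 21 choroid plexus genes (blue) and 12 ependymal genes (orange). The interval of Ttr runs from -4.07 to 3.17, and that of Dnah5 from -1.23 to -0.54.

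Of 12 tested ependymal genes, Dnah5 fell and 0 rose, where 7.61% of all tested genes fell and 4.66% rose. Dnah5 (ENSMUSG00000022262, chromosome 15, 28203752 to 28472052, GRCm38) encodes a heavy chain of the outer dynein arm that powers ciliary beating. It stood at 7.12, 7.73, 9.54, 9.37 and 7.49 CPM in scramble libraries 1 to 5, at 5.07, 4.88, 3.01 and 4.54 in knockdown libraries 1 to 4, and at 4.83 in the library labelled knockdown 5. Every knockdown library lay below every scramble library, a separation also found in 9.33% of all tested genes. The fitted log2 change was -0.88 (SE 0.16, 95% interval -1.23 to -0.54, edgeR adjusted p = 0.00498). Dnah5 has a longest transcript of 15.6 kb. After a correction of each library for length and GC content the log2 change was -0.40 (SE 0.16, edgeR adjusted p = 0.218) and did not pass. In that fit 207 of all tested genes passed, against 1766 without the correction. Without knockdown libraries 2, 3 and 4 the log2 change of Dnah5 was -0.74 (SE 0.19, edgeR adjusted p = 0.132). In that fit 0 of all tested genes passed, so the lost call is not particular to Dnah5.

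Among the other ependymal genes, Hydin, with a longest transcript of 15.8 kb, had a log2 fold change of -0.86 (SE 0.34, 95% interval -1.59 to -0.13, edgeR adjusted p = 0.108), and passed without knockdown library 1 (-1.25, SE 0.26, edgeR adjusted p = 0.0046), a fit in which 22.8% of all tested genes passed. In that fit 2 of the 12 ependymal genes (16.7%) passed. An unadjusted p under 0.05 was found in 6 of the 12 (50%), against 36.3% of all tested genes. Foxj1 (ENSMUSG00000034227, chromosome 11, 116330704 to 116335399, GRCm38) averaged 14.02 ± 3.85 CPM (SD, n = 5) with the scramble hairpin and 14.1 ± 4.55 CPM (SD, n = 5) under the label of knockdown. The fitted log2 change was 0.01 (SE 0.26, 95% interval -0.55 to 0.58, edgeR adjusted p = 0.982), and the exact two-sided permutation test gave p = 0.984 (n = 5 in each group). For Rsph1 the interval ran from -0.75 to 0.74 and for Ccdc153 from -0.30 to 0.97. The median log2 fold change of the 12 genes was -0.20, and 9 of them were below 0.

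Further genes of both tissues were read from lists of genes known in each tissue. Of 36 tested choroid plexus genes outside the 21, 0 passed with edgeR, 1 had an unadjusted p under 0.05, and 19 had the same 5 highest libraries as Ttr. The sum of the 39 genes found on that list ran from 554 to 1423 CPM, a 2.57-fold range against 20.6 for the 21 members. The median SD of the 36 tested genes was 0.79, against 1.55 for the members. The widest spreads were those of Mfrp, Kcnj13, Kcne2 and Col8a1. Kcne2, a potassium channel subunit of the choroid plexus epithelium, stood at 10.1, 1.02, 0.596, 13.5 and 9.001 CPM in scramble libraries 1 to 5, at 19.1, 0.277, 0.125 and 0.291 in knockdown libraries 1 to 4, and at 2.11 in the library labelled knockdown 5. Kcnj13, an inward rectifier potassium channel of the same cells, ranged from 0 CPM in knockdown library 3 to 11.6 CPM in knockdown library 1. Mfrp spanned 0.111 to 39.1 CPM and Col8a1, a collagen chain, 0.554 to 21.8 CPM. Leaving out knockdown library 1 let 6 of the 36 (16.7%) pass, all lower in the knockdown libraries, against 22.8% of all tested genes passing and 12.2% passing as lower in that fit.

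Of 60 tested cilia genes outside the 13, Tppp3 rose and Cfap54, Ccdc39 and Cfap44 fell, a smaller share than the 12.3% of all tested genes that passed. Tppp3, a tubulin-binding protein, had a log2 fold change of 0.52 (SE 0.15, 95% interval 0.20 to 0.85, edgeR adjusted p = 0.0419). Cfap54, of the ciliary central apparatus, had -0.61 (SE 0.17, 95% interval -0.97 to -0.25, edgeR adjusted p = 0.0331). Ccdc39, a ruler protein of the axoneme, had -0.29 (SE 0.09, 95% interval -0.48 to -0.11, edgeR adjusted p = 0.0431), and Cfap44 had -0.73 (SE 0.21, 95% interval -1.18 to -0.27, edgeR adjusted p = 0.0417). After the length and GC correction 0 of the 60 passed, with Tppp3 at 0.29 and Cfap44 at -0.53. In that fit 207 of all tested genes passed, against 1766 without the correction. Leaving out 1 library gave 0 (without scramble library 1, for example) to 14 calls (without knockdown library 1), the latter 23.3% of the 60 against 22.8% of all genes. Of these 14 calls 13 were lower in the knockdown libraries, where 12.2% of all tested genes passed as lower. With the replicate number as a block, Cfap54 (edgeR adjusted p = 0.0511) and Ccdc39 (edgeR adjusted p = 0.0682) did not pass. None of the 60 had the same 5 highest libraries as Ttr. The summed level of the list was nevertheless highest in knockdown library 1 (541 CPM) and scramble libraries 1, 4 and 5 (491, 477 and 467 CPM). It was 362 CPM in the library labelled knockdown 5. The widest spreads were those of Drc7, Pifo, Spata18 and Lrriq1. Drc7, of the dynein regulatory complex, spanned 2.88 to 23.4 CPM. It stood at 10.4 CPM or more in knockdown library 1 and scramble libraries 1, 4 and 5, and at 4.57 CPM or less in the other 6, the library labelled knockdown 5 included (4.28 CPM). Pifo spanned 0.256 to 1.81 CPM, Spata18 0.362 to 2.85 CPM and Lrriq1 0.564 to 3.79 CPM.

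The genes whose log2 CPM over the 10 libraries was most like that of Ttr, by Pearson's r and outside the 34, were Ace, Col8a1, Wdr86, Mfrp, Krt18, Abca4, Kcne2 and Slc16a8, with r from 0.969 to 0.991. Of these 8 genes, 6 are on the list of other choroid plexus genes, and Wdr86 and Abca4 are not. Wdr86 spanned 0.333 to 10.98 CPM and Abca4, a lipid transporter, 2.05 to 33.3 CPM. Ace, the angiotensin-converting enzyme, spanned 9.43 to 98.1 CPM. The genes most like Foxj1 were Cnot3, Tpcn1, Prr12, Tmem151b, Cdr2l, Tmem28, Wdr63 and Phrf1, with r from 0.887 to 0.939, of which Wdr63 is a cilia gene of the lists. These r values are descriptions over 10 shared libraries, and those for Ttr rest on its clusters.

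Other marker lists were set beside the choroid plexus sum, and their part in it was not tested. The sum of 12 interferon-stimulated genes stood at 33.6, 125, 159.6, 40.2 and 35.6 summed CPM in scramble libraries 1 to 5, at 139, 452, 366 and 412 in knockdown libraries 1 to 4, and at 38.5 in the library labelled knockdown 5. The 4 libraries with the lowest interferon sum (scramble 1, 4 and 5 and the one labelled knockdown 5) were all high in Ttr, and knockdown libraries 2, 3 and 4, with the highest, were low in it. Knockdown library 1, the highest in Ttr, had an interferon sum of 139 CPM, within the range of scramble libraries 2 and 3 (125 and 160 CPM). One of the 12 interferon genes, Rtp4, rose in the knockdown libraries, and no marker of the list was at 0 in all libraries. The sum of 12 microglia markers was 383 to 549 CPM in scramble and 466 to 953 CPM in knockdown libraries, and 6 of the 12 rose. Of the 5 red blood cell genes 4 rose, the globin genes Hba-a1, Hba-a2, Hbb-bs and Hbb-bt, near-identical copies within each pair whose reads the counting could split, and their sum was 66.9 to 99.4 CPM in scramble and 96.3 to 153 CPM in knockdown libraries. Over all tested genes 4.66% rose. The sum of 12 oligodendrocyte markers (5275 to 7887 and 5000 to 9988 CPM) and that of 12 endothelial and mural markers (417 to 461 and 423 to 491 CPM) did not have the high and low libraries of Ttr. Of 11 tested endothelial and mural markers 2 rose, and of 12 oligodendrocyte markers 0 passed.

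Markers of brain regions had narrower ranges than the choroid plexus genes. The 8 CA3 markers summed to 363 to 412 CPM in scramble and 332 to 447 CPM in knockdown libraries, and the 15 habenula and thalamus markers to 165 to 205 and 169 to 205 CPM. The 9 markers of neuroblasts and progenitors, which occur along the ventricle wall, summed to 123 to 130 and 107 to 117 CPM. Markers of other regions were also present in every library. The 6 CA1 markers summed to 681 to 755 and 590 to 704 CPM. The 8 dentate granule cell markers summed to 505 to 654 and 436 to 685 CPM. For the 10 cortex markers the sums were 564 to 642 and 532 to 637 CPM. Sums of different lists cannot be compared as amounts of tissue, since their genes differ. Of 8 tested CA3 markers 1 rose, and 1 of 14 tested habenula and thalamus markers fell. Of the 9 neuroblast and progenitor markers 1 fell. No marker of the other region lists passed. Over all tested genes 4.66% rose and 7.61% fell. The fold between the highest and lowest library was 1.35 for CA3, 1.25 for habenula and thalamus and 1.22 for neuroblasts and progenitors. For the other region lists it was 1.21 for cortex, 1.28 for CA1, 1.39 for CA2, 1.57 for dentate granule cells and 1.57 for striatum and septum. It was 20.6 for the 21 choroid plexus members and 2.57 for the list of other choroid plexus genes.

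**Figure D5:**
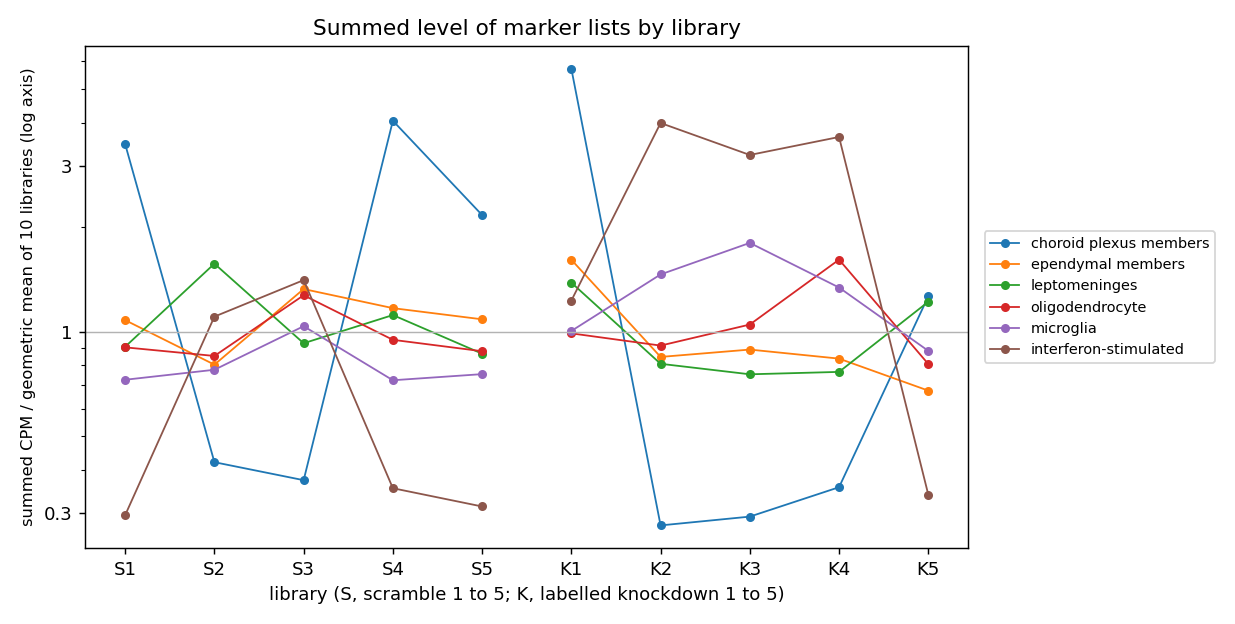
Summed CPM of 6 marker lists in each library, divided by the geometric mean of the list over 10 libraries (log axis; S1 to S5 scramble, K1 to K5 labelled knockdown; lines join libraries of a group). The choroid plexus line runs from 240 to 4944 CPM and the interferon line from 33.6 to 452 CPM before division, and the ependymal (2.38-fold), leptomeningeal, microglial and oligodendrocyte lines cover narrower ranges.

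The count of genes called between the groups was also computed with Ttr in the model. With edgeR, 1766 of 14393 genes passed, 671 higher and 1095 lower in the knockdown libraries. With log2 CPM of Ttr as a covariate, chosen after seeing its spread, 1107 passed, 341 higher and 766 lower, and Dnah5 was still among them (log2 fold change -0.87, SE 0.17, edgeR adjusted p = 0.00918). Without knockdown library 1, the library highest in choroid plexus transcripts, 3305 passed.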

How the data were processed

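The deposited files hold raw counts per Ensembl gene, whole numbers without normalization. Per the submitters' processing notes, HISAT2 and featureCounts were used with build mm10. The versions and the strand setting were not given in the sources used here. Reads of a gene and of an overlapping or antisense partner may therefore be mixed. Per the labels' protocols, polyadenylated RNA was sequenced as read pairs. Symbols, positions, transcript length and GC content came from GENCODE M21 (GRCm38, the assembly of mm10), which matched 18445 of 18453 rows.

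edgeR 4.0.16 in R 4.3.3 tested the counts (filterByExpr, TMM, robust quasi-likelihood fit with 2 groups, Benjamini-Hochberg over all 14393 tested genes, calls at an adjusted p under 0.05). The standard error is the size of the log2 fold change divided by the square root of F. CPM are scaled to TMM library sizes, and the prior count for log2 CPM was 2. Permutation tests used log2(CPM + 1). The pipeline was tested on simulated counts. No library duplicated another: chi-square per degree of freedom within groups was 3.74 to 37.4.

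Alternatives were DESeq2 1.42.0 size factors and Wald test, other filters, a replicate block, 1 surrogate variable (sva 3.50.0), per-library splines of length and GC content with 5 degrees of freedom each, and leaving out libraries. The members, lists and alternatives were chosen with earlier results of these data known. The text names all members, the other choroid plexus and cilia genes past the threshold, the 4 of each list with the widest spread, and the 8 genes most like Ttr and Foxj1 among those with a mean of at least 1 CPM. Counting intervals are not given, since the spread between libraries sets the precision.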

Additional observations from a re-analysis of the deposited data

Results flagged for a closer look

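In each group of 5 libraries, the gap between the highest or lowest library and its nearest neighbour was divided by the range of the group, and gaps over 0.71 of the range were marked. Of 68 sets of 5 values, 23 were marked. The limit is Dixon's critical value for 5 samples, which marks about 1 in 20 sets of normally distributed values. These are raw CPM, many of them in separate clusters, so that rate does not apply to them. These genes share libraries, so the marks are not independent. In 20 of them knockdown library 1 stood above the other knockdown libraries.

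Among choroid plexus genes, the CPM of knockdown library 1 against the next highest knockdown library was marked for Ttr (2443 against 614), Folr1 (27.0 against 6.94), Kl (163 against 30.8), Clic6 (89.5 against 12.98), Aqp1 (25.5 against 4.35), Otx2 (17.7 against 3.26), Enpp2 (1796 against 316) and Prlr (32.5 against 7.06). It was also marked for Sostdc1 (32.0 against 4.47), Slc4a5 (33.4 against 5.25), Tmem72 (42.0 against 5.49), F5 (59.2 against 7.18), Cldn2 (24.2 against 4.10), Igf2 (4.62 against 1.51), Lbp (30.1 against 11.6) and Cab39l (59.4 against 31.1). In the scramble libraries no choroid plexus gene was marked.

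Among ependymal genes, knockdown library 1 was marked for Rsph1 (10.1 against 3.96), Tmem212 (3.27 against 1.77), Ak7 (12.3 against 4.88) and Tekt1 (4.62 against 2.22), in CPM. Scramble library 2 was marked for a low Foxj1 (7.22 against 14.7 CPM in the next lowest), scramble library 3 for a high Tmem212 (3.84 against 1.81 CPM), and knockdown library 3 for a low Dnah5 (3.01 against 4.54 CPM).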

How the results depend on the processing

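The count of genes called was 1766 and moved to 207 with the length and GC correction, 754 with 1 surrogate variable, 1107 with Ttr as a covariate, 1029 without scramble library 4 and the library labelled knockdown 5 together, 0 without knockdown libraries 2, 3 and 4 (2590 at an unadjusted p under 0.05), and 631 (without scramble library 2) to 3305 (without knockdown library 1) when 1 library was left out. DESeq2 called 2555. Choroid plexus genes called stayed at 0, except for 0 to 1 when 1 library was left out. Ependymal genes called went from 1 to 0 with the length and GC correction and without knockdown libraries 2, 3 and 4, and to between 1 and 2 when 1 library was left out. Of the other choroid plexus genes, 0 were called, 1 with DESeq2 (Slc4a10), 1 with 1 surrogate variable (Spint2) and 0 to 6 when 1 library was left out. Of the other cilia genes, 4 were called, 0 with the length and GC correction, with 1 surrogate variable and without knockdown libraries 2, 3 and 4, 1 without scramble library 4 and the library labelled knockdown 5 (Cfap54), 1 with Ttr as a covariate (Cfap54) and 0 to 14 when 1 library was left out. Genes named beside these counts were named after their values were seen. The cause of these changes was not tested. The Foxj1 difference of means was 0.0088 and ran from -0.20 to 0.17 when 1 library was left out, and that of Ttr from -2.54 to -0.90, with no p under 0.05. The log2 fold change changed sign in at least 1 alternative for 29 of 33 members. The median spread of choroid plexus genes kept between 1.55 and 1.60 under the 3 alternatives.

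Replicate numbers did not pair the libraries: the correlation of deviations of same-numbered libraries was 0.239, 0.185, 0.403, -0.114 and 0.0795, and 2 of 10 libraries correlated best with their own number. With the replicate block 1313 genes were called, with 0 choroid plexus, 1 ependymal, 0 other choroid plexus and 5 other cilia genes. Of the 4 other cilia genes called without it, Cfap54 and Ccdc39 were lost under the block and Tppp3 and Cfap44 kept, and Lrriq1, Rfx3 and Dnah6 were gained.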

Other observations

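Not every gene listed as choroid plexus followed Ttr. Trf, which encodes transferrin and is abundant in oligodendrocytes, differed 2.72-fold between libraries, and Cp, ceruloplasmin, 1.60-fold. The bicarbonate transporter gene Slc4a10 differed 1.55-fold. Krt8, a keratin of simple epithelia, differed 24.8-fold (0.233 to 5.78 CPM) without sharing all 5 highest libraries with Ttr. Its partner Krt18 shared them and spanned 0.444 to 7.45 CPM. These genes were named after their values were seen.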
